A study of Mus musculus with 24 samples.

Results

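The genes described are 32 markers of cortical inhibitory neurons and cortical neuropeptides, measured in the frontal cortex of 24 mice. The deposited transcripts could be assigned to 52352 annotated genes, whether or not these had reads. The 32 genes were chosen by name, for the cells they mark or the peptide they encode, and no rule on their values was applied. Earlier results of these data were known when they were chosen. All 32 passed the filter on low counts that left 18239 genes for testing.

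The mice were littermates from a cross of mice with 1 working copy of the progranulin gene (Grn+/-) and mice with a human TDP-43 transgene (hTDP). Poly-A RNA of the frontal cortex was sequenced from 6 mice of each of 4 genotypes, 3 females and 3 males in each. Grn+/-:hTDP+ and Grn+/+:hTDP+ mice were 9.44 to 10.07 months old, Grn+/-:hTDP- mice 8.19 to 10.79 months and Grn+/+:hTDP- mice 9.44 to 10.79 months. The series title poses an interaction between low progranulin and surplus TDP-43. The promoter that drives the transgene is not given in the sources used here.

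Inhibitory neurons of the cortex make GABA from glutamate with glutamic acid decarboxylase and load it into vesicles with a dedicated transporter. They fall into families that are told apart by the proteins they carry: fast-spiking parvalbumin cells and somatostatin cells arise from the medial ganglionic eminence, while cells with vasoactive intestinal peptide, reelin or the serotonin receptor subunit Htr3a arise mainly from the caudal one. Many of them release a neuropeptide beside GABA, and some of these peptides, such as cholecystokinin and enkephalin, are also made by other cortical neurons. In whole tissue, fewer cells of a type and less RNA per cell cannot be told apart.

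Several neuropeptide genes are textbook targets of CREB, the factor that binds the cAMP response element (CRE), so the promoters of the members were searched for it. RefSeq promoters of GRCm38.p6, from 250 bases before to 50 after the start site, were found for 27 of the 32 members; Penk, Calb2, Htr3a, Ndnf and Crh had none in the table. The full CRE, TGACGTCA, lay in the promoter of 1 member, Sst, which is 3.7% of the members found, against 2.03% of all genes in the table. The short form of the CRE, TGACG on either strand, which the full CRE also contains, lay in 11 members (Gad2, Dlx2, Cort, Nos1, Tac1, Kcnc1, Sox6, Cck, Vip, Crhbp and Sst), or 40.7%, against 23.0% of genes. A gene was counted if any of its promoters matched, and the 27 members had 44 promoters. The number of promoters per gene was not taken into account in these shares. A match describes these letters and is not evidence of binding. Cck, a peptide precursor that also holds the short form, and a further match in Tac1 are not shown. The sequences below are of Sst and of 4 other genes of peptide systems, Cort, Tac1, Crhbp and Vip. These 4 hold the short form, and their levels are described later. The sequences are 30 bases each, with the CRE letters in capitals. They lie at chr16:23890874-23890903 on the minus strand for Sst, chr4:149126764-149126793 on the minus strand for Cort, chr6:7555006-7555035 on the plus strand for Tac1, chr13:95444878-95444907 on the minus strand for Crhbp and chr10:5639127-5639156 on the plus strand for Vip.
Sst: gcctccttggcTGACGTCAgagagagagtt
Cort: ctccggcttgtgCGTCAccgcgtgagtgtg
Tac1: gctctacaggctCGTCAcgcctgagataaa
Crhbp: gagctggaccctCGTCAttgccacgcattt
Vip: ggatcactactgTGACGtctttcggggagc

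The libraries held 61445842 to 100859149 estimated reads. Human TARDBP, the transgene, had 4328 to 8162 reads in the transgenic libraries and 0 to 2 in the others. Grn had a median of 27.2 CPM in Grn+/-:hTDP+ mice, 48.3 CPM in Grn+/+:hTDP+ mice, 28.4 CPM in Grn+/-:hTDP- mice and 53.4 CPM in Grn+/+:hTDP- mice, where CPM is the count scaled to a fixed library size. The average log2 change of Grn between Grn+/- and Grn+/+ mice was -0.91 ± 0.12 (SE; edgeR quasi-likelihood test, adjusted p = 0.000614). Mouse Tardbp was lower with the transgene, by -0.52 ± 0.035 on the log2 scale (SE; edgeR, adjusted p = 6.86e-09). The tissue carried markers of cortical excitatory neurons at high level, with a median of 1291 TPM for Slc17a7, the vesicular glutamate transporter, and 106 TPM for Tbr1. TPM is a scaled abundance that corrects for transcript length. Of the striatal markers, Ppp1r1b, which cortical neurons also make, had a median of 91.4 TPM, while Drd1 had 9.38 TPM, Adora2a 1.96 TPM and Drd2 1.41 TPM. Library 2 of the Grn+/+:hTDP+ mice stood apart, with 40188 transcripts above 0 against 65994 to 69846 in the others, and no gene comparison called a member without it either.

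Compared per length, the members covered a wide range of levels. Cck, the precursor of cholecystokinin, was highest, with a median of 2100 TPM over the 24 libraries (1624 to 2429). Sst, the precursor of somatostatin, followed at 874 TPM (711 to 1176), and Npy, neuropeptide Y, at 344 TPM (212 to 484). The ranges of these 3 genes did not overlap. Gad1, which encodes the GAD67 form of glutamic acid decarboxylase, had 209 TPM (180 to 255), and its range overlapped that of Npy. Slc32a1, the vesicular GABA transporter, had 91.1 TPM and Gad2, the GAD65 form, 62.1 TPM. Kcnc1, a fast potassium channel of the Kv3 family that serves rapid firing, had 88.3 TPM, Pvalb, the calcium-binding protein of fast-spiking cells, 70.1 TPM and Vip, vasoactive intestinal peptide, 57.9 TPM. These neighbours overlapped in range.

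The remaining members lay below these. Satb1, a chromatin organizer of somatostatin and parvalbumin cells, had 57.4 TPM, Kcnc2, the second Kv3 channel, 48.3 TPM and Penk, the enkephalin precursor, 43.7 TPM. Cort (cortistatin), Tac1 (the substance P precursor), Tac2 (the neurokinin B precursor), Nxph1 (a secreted neurexin ligand) and Crhbp (the protein that binds corticotropin-releasing hormone) had medians between 28.8 and 34.5 TPM. Pdyn, the dynorphin precursor, Reln, a secreted glycoprotein, and Calb2, the calcium-binding protein calretinin, had 22.3, 21.5 and 19.1 TPM. The transcription factor Dlx1 had 12.7 to 22.8 TPM, and Npas1, Lhx6, Sox6, Dlx2 and Prox1 had medians of 15.3, 14.8, 6.53, 5.19 and 3.09 TPM. Nos1, neuronal nitric oxide synthase, had 12.6 TPM, Crh, corticotropin-releasing hormone, 11.6 TPM, Htr3a 8.29 TPM, Adarb2, a double-stranded RNA-binding protein without editing activity, 6.36 TPM and Ndnf, a secreted factor of neurogliaform cells, 3.20 TPM. Chodl, a membrane protein of long-range somatostatin cells, was lowest at 0.502 TPM.

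**Figure D1:**
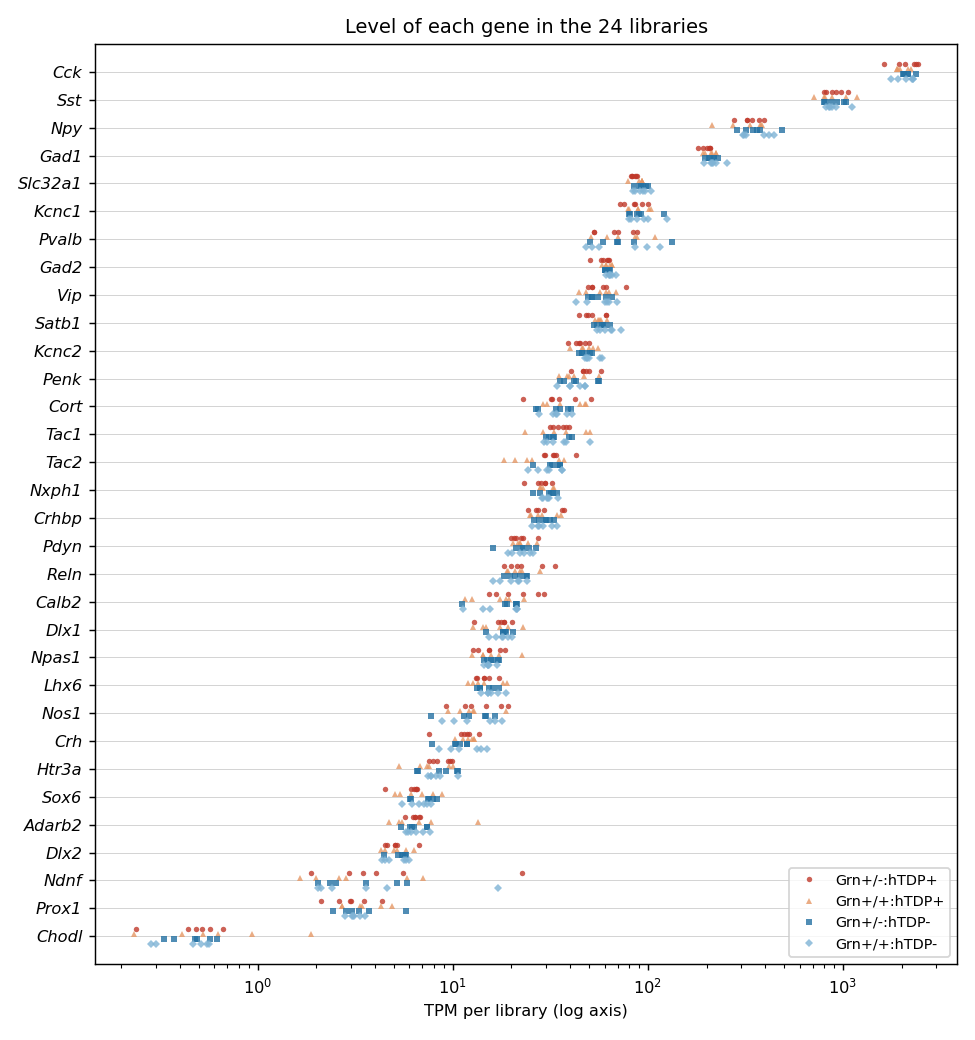
TPM (horizontal, log axis) of each of the 32 genes in every library, coloured by genotype. Cck and Sst stand apart at the top, the range of Npy overlaps that of Gad1, Chodl lies lowest, and Ndnf spreads most among the genes above 1 TPM.

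No member passed the test for a change between genotypes. Among the 32 genes, 0 were called in each of 8 genotype comparisons at an adjusted p under 0.05 (edgeR quasi-likelihood test, adjusted over all 18239 genes tested), and DESeq2 and limma voom also called 0 in each. The share of all genes called was small as well. It was 0.0329% (6 genes) for the transgene in Grn+/+ mice, 0.0219% (4 genes) for the transgene in Grn+/- mice, 0.011% (2 genes) for Grn+/- against Grn+/+ without the transgene and 0.00548% (1 gene) with it. It was 0.0768% (14 genes) for Grn+/-:hTDP+ against Grn+/+:hTDP- mice, 0.11% (20 genes) for the transgene averaged over both Grn genotypes, 0.0219% (4 genes) for Grn+/- averaged over both transgene states and 0% (0 genes) for the interaction, the transgene change in Grn+/- minus that in Grn+/+. At an unadjusted p under 0.05 the members numbered 0, 2, 0, 1, 3, 1, 1 and 0 in the same order. The share of all genes at that level was 7.83% (1428 genes) and 2.38% (435 genes) for the transgene in Grn+/+ and in Grn+/- mice, and 3.41% (622 genes) and 3.37% (614 genes) for Grn+/- without and with the transgene. It was 9.4% (1715 genes) for Grn+/-:hTDP+ against Grn+/+:hTDP- mice, 7.86% (1433 genes) for the transgene on average, 4.93% (899 genes) for Grn+/- on average and 2.38% (434 genes) for the interaction. The highest count of members, 3 of 32 or 9.38%, thus stood beside 9.4% of all genes.

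The intervals bound what could have been missed. For the transgene averaged over Grn genotypes, with 12 mice on each side, the whole 95% interval lay within a 1.5-fold change for 30 of the 32 members and within 2-fold for 32. For the interaction these numbers were 24 and 30, since the median standard error there was 0.16 against 0.079 on the log2 scale. Over the members the median log2 change with the transgene was -0.0055, with 16 above 0 and 16 below, while the median over all genes was 0.0031. For Grn+/- against Grn+/+ the median was 0.016 over the members, with 18 above 0 and 14 below, and 0.0055 over all genes.

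**Figure D2:**
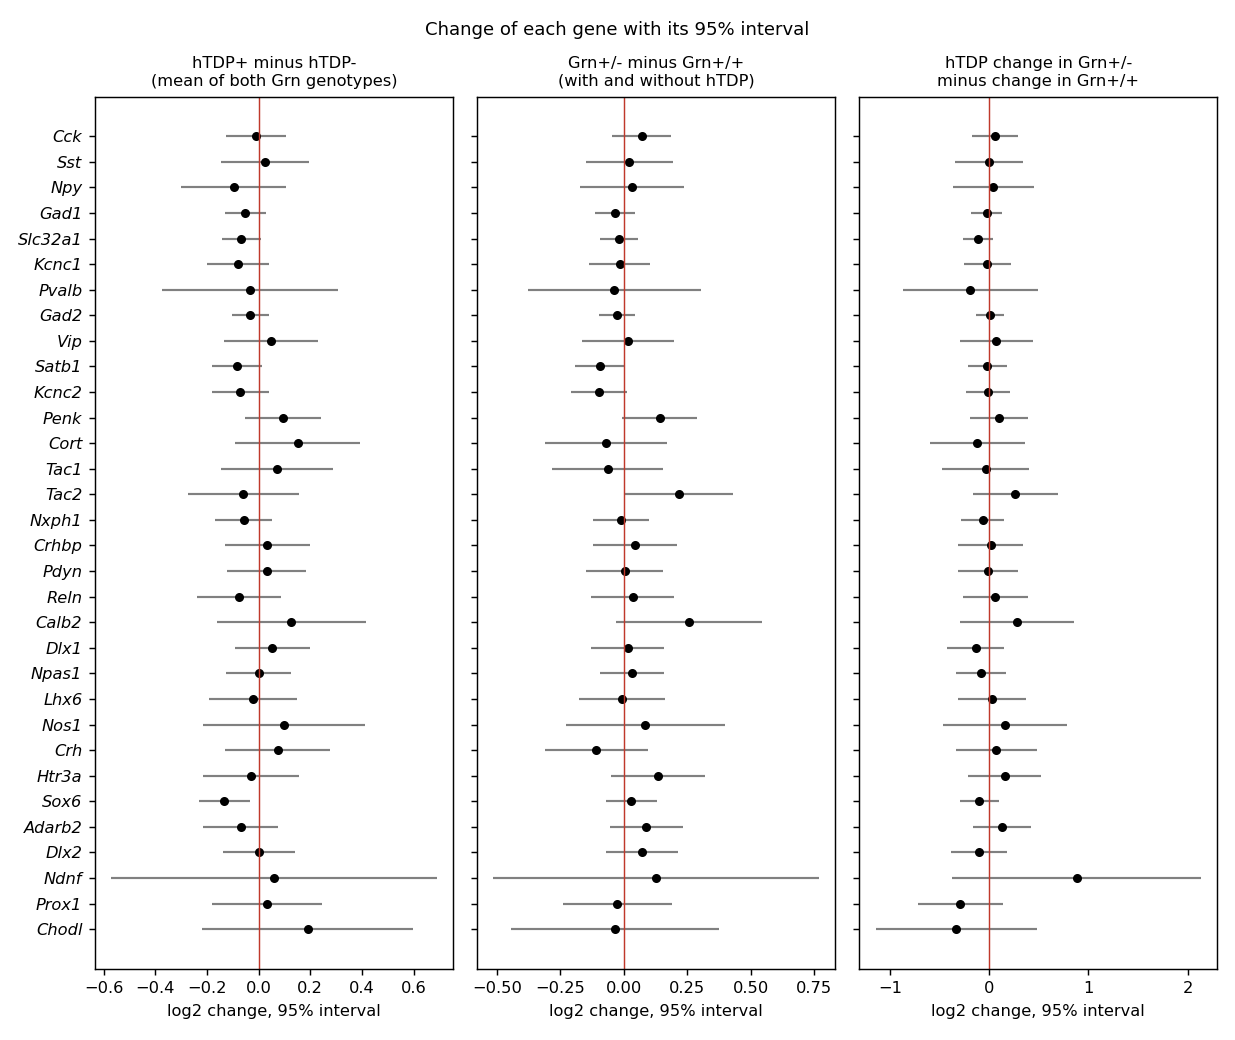
Log2 change of each of the 32 genes (points) with its 95% interval (lines) for the transgene, for Grn+/- and for the interaction, ordered by level. Intervals cross 0 except for Sox6 with the transgene and Tac2 with Grn+/-, and Ndnf and Chodl have the widest.

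The genes shared by all GABA neurons varied least. Gad1 had 299, 327 and 340 CPM (lowest, median and highest of 6 mice) in Grn+/-:hTDP+ mice, 311, 333 and 365 CPM in Grn+/+:hTDP+ mice, 317, 338 and 360 CPM in Grn+/-:hTDP- mice and 302, 336 and 402 CPM in Grn+/+:hTDP- mice. The 4 groups overlapped nearly in full. The average log2 change of Gad1 with the transgene was -0.052 ± 0.038 (SE; edgeR, adjusted p = 0.756), and that of Gad2 was -0.032 ± 0.034 (adjusted p = 0.85). Slc32a1 had 113, 118 and 126 CPM in Grn+/-:hTDP+ mice, 108, 129 and 131 CPM in Grn+/+:hTDP+ mice, 118, 128 and 139 CPM in Grn+/-:hTDP- mice and 114, 127 and 139 CPM in Grn+/+:hTDP- mice. Grn+/-:hTDP+ mice had the lowest median, and their range overlapped that of each other group. Within Grn+/- mice the log2 change of Slc32a1 with the transgene was -0.12 ± 0.051 (SE), with an unadjusted p of 0.0226 and an edgeR adjusted p of 0.99995.

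Of the calcium-binding proteins, Pvalb had a median of 25.2 CPM in Grn+/-:hTDP+ mice, 29.1 CPM in Grn+/+:hTDP+ mice, 25.6 CPM in Grn+/-:hTDP- mice and 25.7 CPM in Grn+/+:hTDP- mice. Within each group its highest mouse was well above its lowest, from 33.7 against 20.0 CPM in Grn+/-:hTDP+ mice to 49.8 against 18.5 CPM in Grn+/-:hTDP- mice. Calb2 had 9.86, 13.0 and 18.6 CPM in Grn+/-:hTDP+ mice, 7.12, 11.2 and 14.3 CPM in Grn+/+:hTDP+ mice, 6.95, 12.4 and 13.3 CPM in Grn+/-:hTDP- mice and 6.86, 11.2 and 13.1 CPM in Grn+/+:hTDP- mice. The groups overlapped, and the 2 highest values of Calb2 were both in Grn+/-:hTDP+ mice. The average log2 change of Calb2 with Grn+/- was 0.26 ± 0.14 (SE; edgeR, adjusted p = 0.926).

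Of the 10 peptide precursors, 7 had an average log2 change above 0 with the transgene and 7 with Grn+/-, and 0 were called in either. Tac2 had the smallest unadjusted p with Grn+/-. It had 5.98, 6.80 and 9.09 CPM in Grn+/-:hTDP+ mice, 3.77, 5.18 and 7.56 CPM in Grn+/+:hTDP+ mice, 5.34, 6.80 and 7.39 CPM in Grn+/-:hTDP- mice and 4.91, 6.21 and 7.48 CPM in Grn+/+:hTDP- mice. The Grn+/+:hTDP+ median was the lowest, and the groups overlapped. The average log2 change with Grn+/- was 0.22 ± 0.10 (SE; unadjusted p = 0.0462; edgeR adjusted p = 0.926), and among transgenic mice alone it was 0.35 ± 0.15 (SE; unadjusted p = 0.0259; edgeR adjusted p = 0.989).

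Penk had 23.3, 27.1 and 34.1 CPM in Grn+/-:hTDP+ mice, 20.4, 23.9 and 30.2 CPM in Grn+/+:hTDP+ mice, 19.7, 24.5 and 31.4 CPM in Grn+/-:hTDP- mice and 18.9, 23.96 and 27.1 CPM in Grn+/+:hTDP- mice. The groups overlapped, with the highest mouse in the Grn+/-:hTDP+ group. Between Grn+/-:hTDP+ and Grn+/+:hTDP- mice its log2 change was 0.24 ± 0.10 (SE; unadjusted p = 0.0284; edgeR adjusted p = 0.471). Penk is also made by striatal projection neurons. With the level of 11 striatal markers as a term in the fit, the same change was 0.16 (edgeR, unadjusted p = 0.0961). Whether striatal tissue has a part in the change of Penk was not tested. Sst, Cort, Vip, Npy, Cck, Tac1, Crh and Pdyn had average log2 changes with the transgene between -0.097 (Npy, SE 0.099) and 0.15 (Cort, SE 0.12). Crhbp had 0.034 ± 0.080 (SE).

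Of the 7 transcription factors and chromatin proteins, 4 lay above 0 and 3 below with the transgene, and Sox6 had the smallest unadjusted p of all members. Sox6, a factor of medial ganglionic eminence cells, is encoded at chr7:115470872-116038796 on the minus strand (GRCm38). It had 17.4, 21.5 and 25.8 CPM in Grn+/-:hTDP+ mice, 21.5, 22.0 and 22.9 CPM in Grn+/+:hTDP+ mice, 22.9, 25.0 and 26.0 CPM in Grn+/-:hTDP- mice and 21.9, 22.7 and 26.6 CPM in Grn+/+:hTDP- mice. The Grn+/-:hTDP- mice had the highest median and the Grn+/-:hTDP+ mice spread most widely, and the groups overlapped. The average log2 change of Sox6 with the transgene was -0.13 ± 0.048 (SE; 95% interval -0.23 to -0.033), with an unadjusted p of 0.0114, which ranked 369 among 18239 genes, and an edgeR adjusted p of 0.564. Within Grn+/- mice it was -0.18 ± 0.068 (SE; unadjusted p = 0.0132; edgeR adjusted p = 0.99995).

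Satb1 had 127, 136 and 161 CPM in Grn+/-:hTDP+ mice, 140, 152 and 158 CPM in Grn+/+:hTDP+ mice, 138, 150 and 163 CPM in Grn+/-:hTDP- mice and 141, 156 and 188 CPM in Grn+/+:hTDP- mice. Grn+/-:hTDP+ mice had the lowest median and Grn+/+:hTDP- mice the highest, and both ranges overlapped. The log2 change between these groups was -0.18 ± 0.066 (SE; unadjusted p = 0.0134), with an adjusted p of 0.411 with edgeR and 0.114 with DESeq2. Kcnc2 had a log2 change of -0.17 ± 0.075 (SE; unadjusted p = 0.0365; edgeR adjusted p = 0.494) in the same comparison. The other factors, Lhx6, Dlx1, Dlx2, Prox1 and Npas1, had average log2 changes with the transgene between -0.022 and 0.054. Dlx1 overlaps the antisense gene Dlx1as, which held 39476 reads over all libraries against 38678 for Dlx1. The labels' protocol describes libraries that keep strand and libraries that do not, so the reads of this pair may be divided wrongly.

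**Figure D3:**
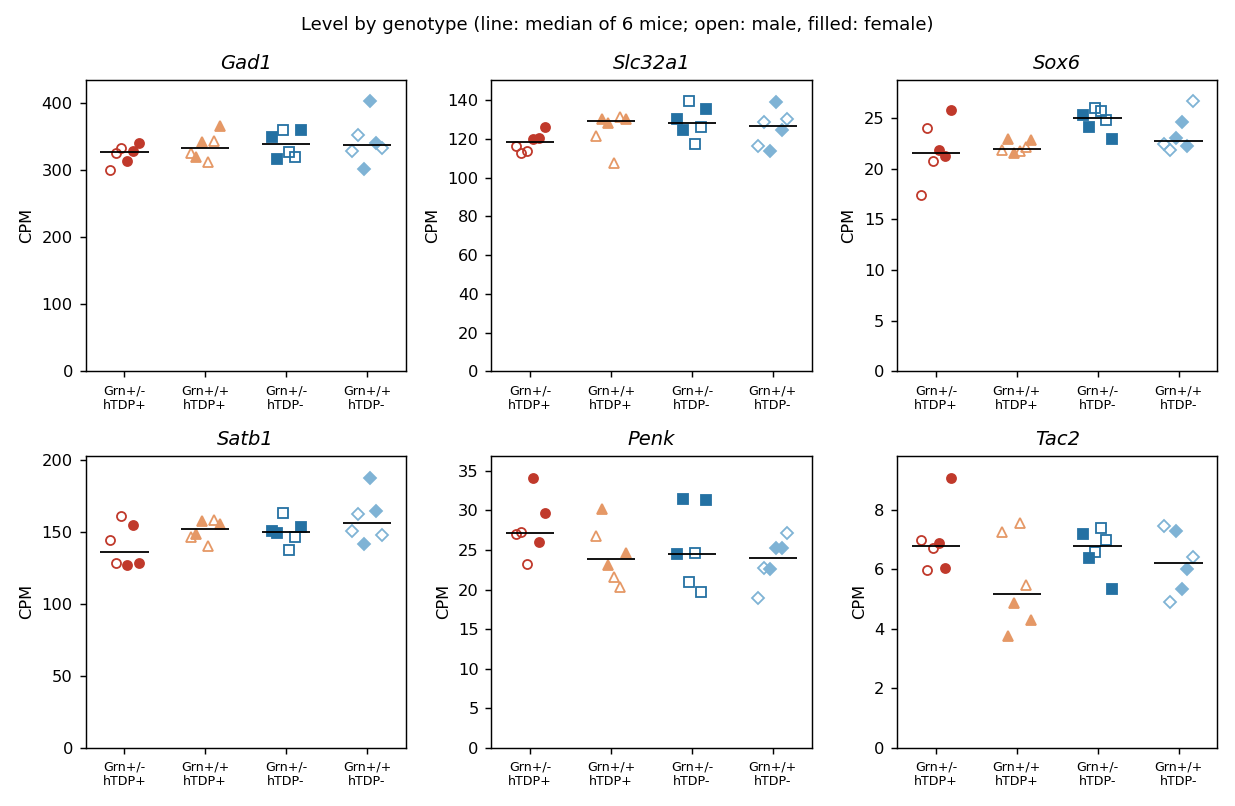
CPM of 6 members in each mouse, by genotype, with the median of 6 mice as a line, open symbols for males and filled ones for females. The groups overlap for every gene, but for Sox6 those of Grn+/+:hTDP+ and Grn+/-:hTDP- mice only just meet. Sox6 and Satb1 have their lowest medians in Grn+/-:hTDP+ mice.

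Among the surface and secreted markers, Ndnf had the largest interaction estimate, 0.88 ± 0.61 (SE; edgeR, adjusted p = 0.99998). It had 10.4, 17.5 and 63.9 CPM in Grn+/-:hTDP+ mice, 9.02, 15.0 and 31.2 CPM in Grn+/+:hTDP+ mice, 11.1, 14.9 and 31.6 CPM in Grn+/-:hTDP- mice and 10.9, 15.9 and 50.9 CPM in Grn+/+:hTDP- mice. In each group the highest mouse was far above the median. Nxph1, Adarb2, Htr3a, Reln, Nos1 and Chodl had average log2 changes with the transgene between -0.076 (Reln, SE 0.078) and 0.19 (Chodl, SE 0.20). Kcnc1 had -0.081 ± 0.058 (SE).

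Sex was compared over 12 males and 12 females. None of the 32 members was called (0 with edgeR, DESeq2 and voom; 2 at an unadjusted p under 0.05 with edgeR and 3 with DESeq2), against 0.0713% of all genes (13 genes). At the unadjusted level the share of all genes was 5.99% with edgeR and 6.45% with DESeq2, and the 2 members were 6.25% of the 32. Penk had 18.9, 23.0 and 27.2 CPM in males and 22.5, 25.7 and 34.1 CPM in females. The ranges overlapped with lower values in males, and the log2 change was -0.23 ± 0.071 (SE; unadjusted p = 0.00427; edgeR adjusted p = 0.658). Htr3a had 6.999, 8.90 and 10.0 CPM in males and 5.07, 7.17 and 9.98 CPM in females, a log2 change of 0.23 ± 0.090 (SE; unadjusted p = 0.02; edgeR adjusted p = 0.805).

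Genes that handle GABA and peptides outside the members were counted for the transgene averaged over Grn genotypes. Of 8 genes of GABA uptake, breakdown and the inhibitory synapse, 8 lay below 0 with a median log2 change of -0.052, 3 of them at an unadjusted p under 0.05 and 0 called, against a median of 0.0031 and 7.86% at that level over all genes. Slc12a5, the neuronal chloride exporter KCC2, had -0.086 ± 0.036 (SE; edgeR adjusted p = 0.602). Of 7 genes of the perineuronal net, the matrix that surrounds parvalbumin cells, 6 lay below 0 with a median of -0.083 and 0 called. Of 16 peptide receptors 13 lay below 0, with a median of -0.076. Sstr1, a somatostatin receptor, had -0.21 ± 0.066 (SE; unadjusted p = 0.00353; edgeR adjusted p = 0.435). Of 13 genes of peptide processing and dense core vesicles, 7 lay above 0 and 6 below. The 8 excitatory neuron markers also lay below 0, all 8, with a median of -0.066, and the 6 oligodendrocyte markers all lay above it, with a median of 0.25. That average covers opposite directions, since the transgene change of the 6 oligodendrocyte markers had a median of -0.19 in Grn+/- mice, all 6 below 0, and 0.69 in Grn+/+ mice, all 6 above it. The median of their interaction was -0.88 on the log2 scale, with 0 called and 0 at an unadjusted p under 0.05 (edgeR). The excitatory markers had medians of -0.038 in Grn+/- mice and -0.10 in Grn+/+ mice. Whether these shifts have a part in the values of the inhibitory genes was not tested.

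How reads divide among the transcripts of a gene (transcript usage) could be tested in 13 members. Of these, 0 were called with the transgene, against 0.165% of 7879 genes (13 genes), and 0 with Grn+/-, against 0.0381% (3 genes), by edgeR's likelihood-ratio fit; without library 2 of the Grn+/+:hTDP+ mice the counts of members were also 0. At an unadjusted p under 0.05 the members were 0 in both comparisons with this fit, and 3 and 1 of 13 with limma voom, which called 0 of them. The share of all genes at that level was 3.72% with the transgene and 1.45% with Grn+/- by the edgeR fit, and 15.7% and 9.16% by limma voom. Tac1 had 79.7% ± 3.3 (SD, n = 24) of its reads in its main transcript and 17.5% ± 2.2 in the next. Kcnc1 had 65.3% ± 3.6 and 34.7% ± 3.6 in its main pair of coding transcripts. Adarb2 had 52.9% ± 3.3 in a transcript annotated as a target of nonsense-mediated decay.

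The members differed from mouse to mouse more than genes of like level. The median standard deviation between mice, after genotype and sex means were removed, was 0.206 over members and 0.164 over all genes on the log2 scale, and 30 of 32 members were above the median of genes of like level; Dlx2 and Chodl were not. The highest library was 7.09 times the lowest for Ndnf, 4.12 times for Chodl, 2.80 times for Pvalb, 2.71 times for Calb2 and 2.69 times for Nos1. For Gad1, Gad2 and Slc32a1 this ratio was 1.34, 1.31 and 1.30.

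Some of these differences were shared between members. Over the 496 pairs of members, the level of 1 gene was correlated with that of the other across 24 libraries, with genotype and sex means removed, and 100 pairs passed an adjusted p under 0.05 in a permutation test of 100000 draws, 72 of them positive and 28 negative. Spearman's rho passed in 82 of the 100. The share of all gene pairs that would pass this test was not computed, so the 100 pairs have no baseline. A Pearson's r of at least 0.8 was found in 10 pairs, or 2.02%, against 0.293% of all gene pairs, and an r of -0.8 or lower in 5 pairs, or 1.01%, against 0.0781%. The pairs of all genes were not matched to the members for level or spread. Without library 2 of the Grn+/+:hTDP+ mice, no r of the 15 member pairs at these limits moved by more than 0.033.

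Sst, Cort, Tac1, Crhbp and Lhx6 formed a group. Sst and Cort had an r of 0.90 and a rho of 0.88, each with p = 1e-05, the smallest that 100000 draws can give. Without the 2 libraries farthest from the median of Sst, r was 0.88. It was 0.89 in females and 0.91 in males, and 0.99 and 0.87 in the 9 mice aged 9.44 months and the 9 aged 10.07 months. Sst and Tac1 had an r of 0.89 and a rho of 0.89, Sst and Crhbp 0.88 and 0.79, and Tac1 and Lhx6, the factor that specifies medial ganglionic eminence cells, 0.82 and 0.78. Without the 2 farthest libraries these were 0.83, 0.82 and 0.77. Not all members named above for somatostatin or medial ganglionic eminence cells joined this group. With Sst, Chodl had an r of 0.65, Sox6 0.22, Pvalb 0.021 and Satb1 -0.026. Vip and Htr3a, which mark caudal ganglionic eminence cells, had an r of 0.79 and a rho of 0.83, and Adarb2 and Htr3a 0.75 and 0.75. Other members were less close to this pair. Reln had an r of 0.43 with Vip and 0.51 with Htr3a, and Ndnf -0.00049 and 0.37. Prox1 had 0.062 and 0.10, and Npas1 -0.13 and -0.24.

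The other group set Pvalb, Npy and Kcnc1 against Calb2, Nos1, Ndnf and Pdyn. Pvalb and Npy had an r of 0.85 and a rho of 0.89, and Pvalb and Kcnc1 0.82 and 0.76. Calb2 and Nos1 had 0.90 and 0.88, and Ndnf and Nos1 0.81 and 0.84. Between the sides, Pvalb and Calb2 had an r of -0.87 and a rho of -0.86, -0.84 without the 2 farthest libraries, -0.93 in females and -0.80 in males. Npy and Pdyn had an r of -0.83 and a rho of -0.87.

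**Figure D4:**
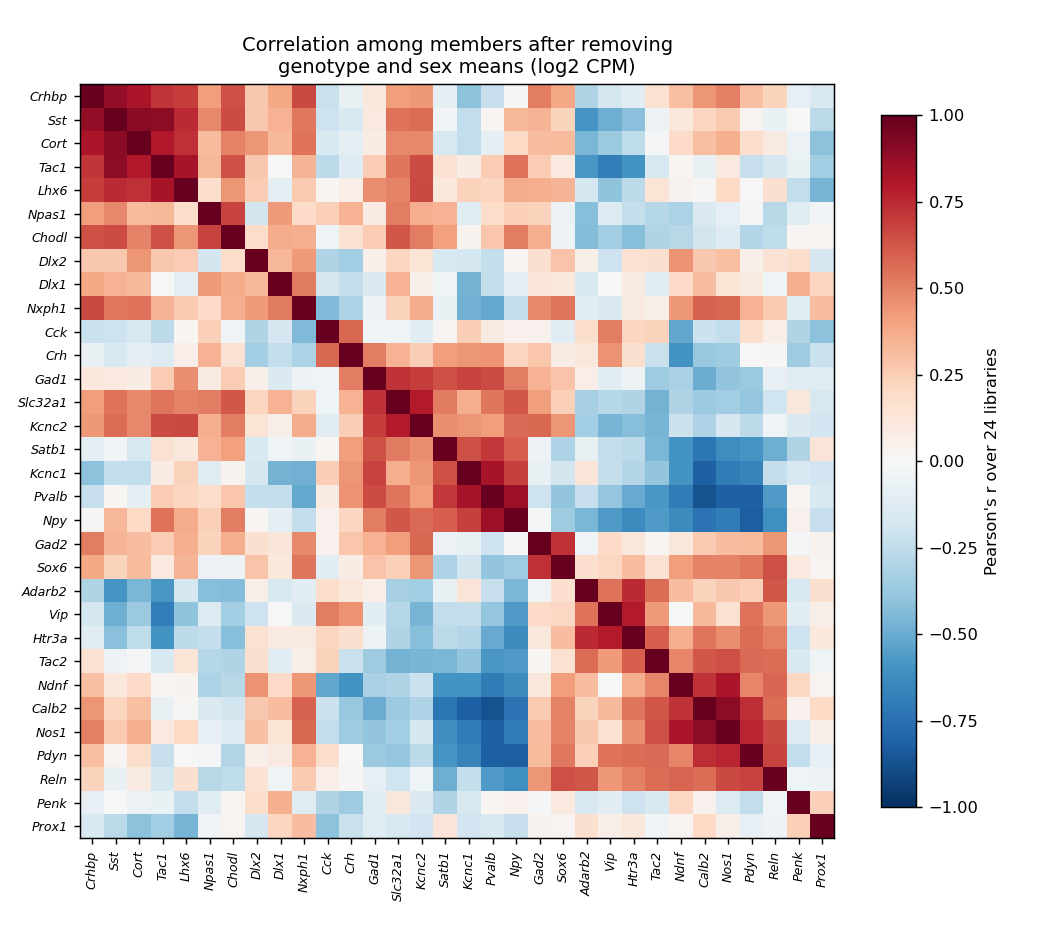
Pearson's r of each pair of members over 24 libraries after genotype and sex means were removed (red positive, blue negative), with genes ordered by likeness. The block of Sst, Cort, Tac1, Crhbp and Lhx6 is positive, and Pvalb, Npy and Kcnc1 are negative with Calb2, Nos1, Ndnf and Pdyn.

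The same genes moved with a list of hippocampal and claustral markers. The medians of these markers ran from 0.037 TPM for Dsp to 68.8 TPM for Wfs1, and each counted equally in their mean. Whether they stand for other regions or for cells of the cortex itself was not tested. The mean log2 level of the 7 hippocampal and claustral markers ranged from -0.47 to 0.41 per library around the average. At an adjusted p under 0.05 over all genes, 8 of the 32 members were correlated with it, against 8.21% of all genes. Nos1 had an r of 0.84 and a rho of 0.79, Ndnf 0.83 and 0.80, Calb2 0.79 and 0.84, and Pdyn 0.62 and 0.68, while Pvalb had -0.74 and -0.74, Kcnc1 -0.70 and -0.66, Npy -0.66 and -0.73, and Satb1 -0.65 and -0.76. The adjusted p of these 8 ran from 0.0019 to 0.0236 in permutation tests. Without the 2 libraries farthest from the median, 8 members passed again. The highest Ndnf value, 63.9 CPM in a Grn+/-:hTDP+ mouse, was in the library with the third highest marker level (0.32), and the next, 50.9 CPM in a Grn+/+:hTDP- mouse, in the library with the highest (0.41). The highest Pvalb value, 49.8 CPM in a Grn+/-:hTDP- mouse, was in the library with the lowest marker level (-0.47). The low ends of these 2 genes mirrored this only in part. The lowest Pvalb values, 17.8 CPM in a Grn+/+:hTDP- mouse and 18.5 CPM in a Grn+/-:hTDP- mouse, came with marker levels of -0.029 and -0.072. The lowest Ndnf value, 9.02 CPM in a Grn+/+:hTDP+ mouse, came with 0.014. The next, 10.4 CPM in a Grn+/-:hTDP+ mouse, came with -0.20. The lowest values of Calb2 (6.86 and 6.95 CPM) and Nos1 (43.3 and 38.0 CPM) were in the libraries with the lowest marker levels. These were a Grn+/+:hTDP- mouse (-0.39) and a Grn+/-:hTDP- mouse (-0.47). With the 8 excitatory neuron markers 8 of the 32 members were correlated, against 14.7% of all genes. Among these members were Calb2 with an r of -0.84 and Kcnc1 with 0.82. With the hippocampal and claustral marker level as a term in the fit, 0 members were called in any comparison. A fit with the excitatory marker level was not run.

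Striatal markers were tested because Penk, Tac1 and Pdyn are abundant in striatal projection neurons. Their level was correlated with 2 of the 32 members, Dlx1 (r 0.60, rho 0.35) and Prox1 (r 0.59, rho 0.57). That share was no higher than the 6.59% found over all genes. Once the 2 farthest libraries were left out, 0 members were correlated. The r of Dlx1 was 0.83 in females and 0.12 in males, and that of Prox1 0.76 in females and 0.29 in males. Penk had an r of 0.48 and a rho of 0.37 (adjusted p = 0.103, permutation test), Tac1 an r of -0.25 and Pdyn 0.083.

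**Figure D5:**
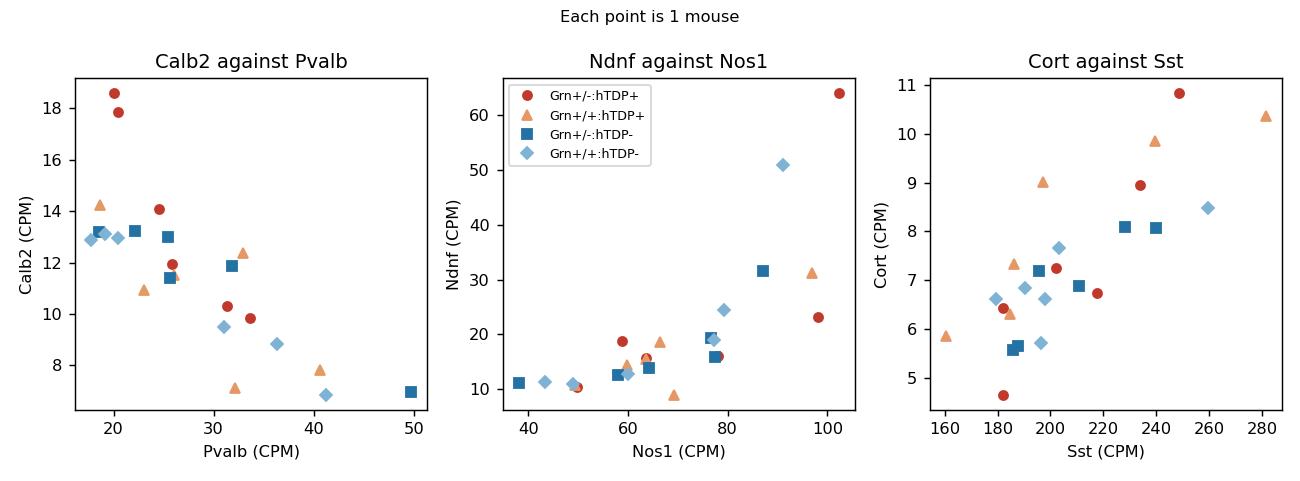
CPM of 3 pairs of members, 1 point per mouse, coloured by genotype. Calb2 is lower where Pvalb is higher, Ndnf and Cort are higher where Nos1 and Sst are higher, and mice of all 4 genotypes lie along each trend.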

How the data were processed

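Per the labels, each library is the frontal cortex of 1 mouse. The authors' deposited expected counts (estimated reads per transcript, from Salmon per the submitters' processing notes, which also name STAR, SAMtools and DESeq2 without versions), TPM and effective lengths were used as deposited, and the build behind them is not given in the sources used here. Transcripts were placed in genes with GENCODE M21 of GRCm38, which took 138032 of 149444 (92.4%). Reads of a gene's transcripts were added up and rounded to whole numbers; transcripts without a gene, 1.17% to 1.66% of reads, were left out.

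The quasi-likelihood test of edgeR 4.0.16 in R 4.3.3 was used, two-sided, after TMM scaling and the tool's default filter on low counts, with terms for genotype and sex over all 24 libraries. Adjusted p-values are Benjamini-Hochberg values over all genes tested, with a threshold of 0.05; log2 values have a prior count of 1. Usage kept transcripts with at least 5% of their gene. Correlations used log2 CPM, and their p-values treat residuals as exchangeable. The correlation with striatal markers was planned with p-values adjusted over the members and is given adjusted over all genes. Alternatives were DESeq2 1.42.0, limma voom (limma 3.58.1), other scaling, filters and terms, and leaving out each library. All 32 members are named. Genes of other lists are named for a small p or to give the levels of their list. The members and lists were chosen with earlier results of these data known. The scripts were tested on simulated data. Intervals cover the spread between mice, 1 library per mouse.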

Additional observations from a re-analysis of the deposited data

Results flagged for a closer look

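In each genotype, the 6 values of every member were screened for a mouse whose gap to its nearest neighbour exceeded 0.625 of the group's range, which chance gives in about 1 of 20 groups. Of 128 groups, 12 (9.38%) had such a mouse, and these came from 6 libraries. Over all genes tested, 8.41% of groups had one. Ndnf stood apart at 63.9 CPM in replicate 4 of the Grn+/-:hTDP+ mice (next 23.1) and at 50.9 CPM in replicate 6 of the Grn+/+:hTDP- mice (next 24.4). The same Grn+/-:hTDP+ mouse had 7.45 CPM of Dlx2, and the same Grn+/+:hTDP- mouse 45.6 CPM of Nxph1 and 260 CPM of Sst. Replicate 6 of the Grn+/-:hTDP+ mice had 32.9 CPM of Pdyn, 9.09 CPM of Tac2 and 55.0 CPM of Vip, each the highest of its group. Replicate 6 of the Grn+/-:hTDP- mice had 6.95 CPM of Calb2, the lowest of its group, and 302 CPM of Kcnc1, the highest. Replicate 4 of the Grn+/+:hTDP+ mice had 88.9 CPM of Reln, and replicate 1 of the Grn+/+:hTDP- mice had 9.86 CPM of Htr3a.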

How the results depend on the processing

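Over 321 combinations of an alternative fit and a comparison, 0 had a member called; the alternatives were DESeq2, voom, other scaling, no filter, length-scaled counts, age terms, no sex term, marker terms, single sexes and leaving out each of 24 libraries, and in the last the count stayed between 0 and 0 in every comparison. The 10 values named at an unadjusted p under 0.05 were followed under 354 alternatives, and 353 kept their direction. They were picked for a small p in the same mice, and most alternatives left out 1 mouse at most. Few reversals could therefore occur, and the count is no further support for these values. Tac2 with Grn+/- among transgenic mice was -0.049 in males alone, where the cause was not tested. The count of members correlated with striatal markers was 0 without the 2 farthest libraries and 0 when genotype and sex means were kept. Counting the short form of the CRE gave 11 members in place of 1; of these, Sst alone also has the full form. DESeq2 called 61 genes with the transgene against 20 and 92 against 14 between Grn+/-:hTDP+ and Grn+/+:hTDP- mice, with 0 members among them. No paired analysis was possible because the labels give animal numbers and no replicate numbers shared between groups. Mice of several groups share an exact age, and with age as a factor 0 members were called. The hippocampal and claustral marker term, the correlations with lists other than the striatal one, the pair correlations and usage without Grn+/+:hTDP+ replicate 2 were chosen after seeing the data. For other lists, the count of members correlated with astrocytes was 1 and 0 under these alternatives, against 6 of 32 (3.62% of all genes). With microglia it was 4 and 4 against 7 of 32 (6.77%), and with choroid plexus 0 and 0 against 4 of 32 (9.47%).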
